A study of Mus musculus with 12 samples.

Results

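The SLAM family is a group of surface receptors of blood cells, and 8 of its genes (Slamf1, Slamf6, Slamf7, Slamf8, Slamf9, Cd48, Cd84 and Ly9) are described here across 12 bulk RNA-seq libraries of 4T1 breast tumors. The genes were picked by symbol from the 55401 genes of the expression table, and the family itself was chosen from earlier results of these data, in which levels of its members differed between the treatment groups. The group levels below are therefore a description, and adjusted p-values, which come from a fit over all genes tested, are not independent evidence that the family responds. A ninth gene of the same chromosomal cluster, Cd244a, was not on the list and is given only where Cd48, Ly9 or the cluster is discussed.

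SLAM receptors are transmembrane proteins of the immunoglobulin superfamily, and most of them bind the same receptor on a neighboring cell. Cd48 is the exception: it is held in the membrane by a lipid anchor and serves as the ligand of Cd244a, a receptor of natural killer (NK) cells. The tails of most members carry tyrosine motifs that dock the small adaptors SAP (gene Sh2d1a) and EAT-2 (gene Sh2d1b1), which pass the signal on in lymphocytes and NK cells, whereas Slamf8 and Slamf9 have short tails without these motifs and are known from macrophages and dendritic cells.

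4T1 is a mouse mammary carcinoma line, and its cells were injected into the mammary site of Balb/c mice, which have an intact immune system and were bought at 6 to 8 weeks of age. The sex of the mice is not given by the labels. The 4 groups of 3 tumors received a control isotype (IgG1-Fc, called control here), recombinant IL10-Fc protein (IL-10-Fc), an antibody to the receptor of colony stimulating factor 1 (aCSF1R), or BF10, a fusion of interleukin-10 with the CSF1R antibody. Dosing began at a tumor size of 100 mm3, and the labels count 6 doses while the series text counts 4, so the number behind these samples is uncertain. The labels do not state that every tumor came from its own animal, so p-values measure the spread between these tumors. All tumors come from 1 cell line, and the libraries hold cancer, stromal and immune cells together, so that fewer cells of a type and less RNA per cell cannot be told apart.

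The design asks what each part of the fusion does alone and what the fusion does. Levels are given as TPM, the deposited FPKM values brought to a common sum per library, which allows levels of different genes to be set side by side per transcript length. Differences are on the log2(TPM + 1) scale, which understates changes of low genes, and a gene was called past the threshold where its adjusted p was below 0.05 and it changed 1.5-fold or more. Depth, estimated from the step that 1 read makes in the FPKM values, was 28700000 to 33300000 reads per library. The FPKM sums split the libraries into 5 higher-sum libraries (control replicates 4 and 7, IL-10-Fc replicate 7, aCSF1R replicate 8 and BF10 replicate 6) and 7 lower-sum libraries, with 5.90% to 9.26% and 3.14% to 3.96% of the sum in mitochondrial genes. With 2 of 3 control libraries but 1 of 3 in each treated group in the higher-sum set, differences from control are also given with this set as a term in the model. As a check of the tissue, the summed level of 5 epithelial markers, among them Krt8 and Epcam, was 670 to 2289 TPM in the 12 libraries, and 0 of the 5 were at 0.

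The summed level of the 8 genes was 77.1, 114 and 131 TPM in the control tumors and 78.9, 92.5 and 93.7 TPM with IL-10-Fc. BF10 tumors stood at 92.7, 110 and 111 TPM. The aCSF1R tumors stood at 26.2, 28.6 and 31.0 TPM, below all 9 others. The makeup of the sum was also different there. Slamf9 held 23.6% to 29.7% of it in control tumors, 12.7% to 27.5% with IL-10-Fc or BF10, and 2.95% to 6.08% with aCSF1R. The share of Ly9 was 3.61% to 9.80% in control, 6.20% to 10.7% with IL-10-Fc or BF10, and 16.9% to 27.2% with aCSF1R. Cd84 kept a similar part of the sum, 21.2% to 30.6% with aCSF1R and 21.3% to 32.6% in the other groups.

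**Figure D1:**
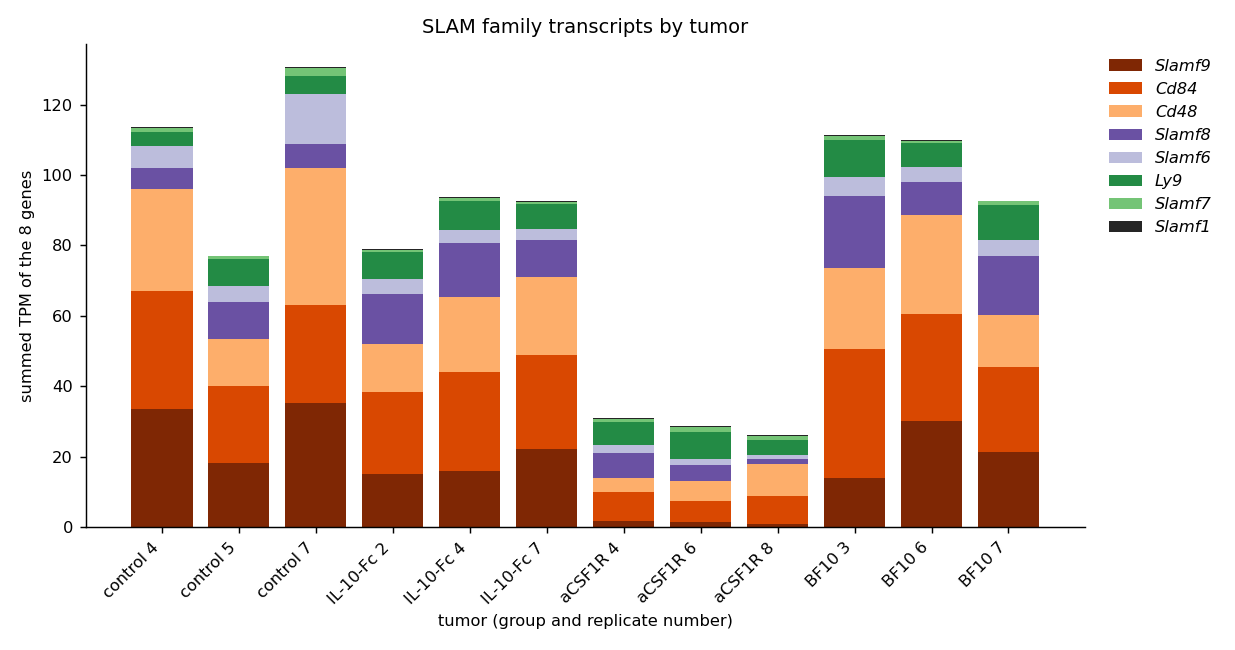
Stacked bars show the TPM of the 8 SLAM family genes in each of the 12 tumors (y axis, summed TPM; x axis, group and replicate number). The 3 aCSF1R bars, at 26.2 to 31.0 TPM, are lower than the other 9, at 77.1 to 131 TPM, and the Slamf9 segment is nearly absent from them.

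In control tumors the mean levels ran from Slamf9 (29.1 ± 9.46 TPM, SD, n = 3), Cd84 (27.8 ± 5.82) and Cd48 (27.0 ± 12.9) through Slamf6 (8.30 ± 5.27), Slamf8 (7.76 ± 2.49) and Ly9 (5.57 ± 1.79) to Slamf7 (1.37 ± 0.746) and Slamf1 (0.260 ± 0.115). The ranges of neighbors in this order overlapped down to Ly9, while Slamf7 lay below Ly9 and Slamf1 below Slamf7 without overlap. In aCSF1R tumors the order was Cd84 (7.43 ± 1.18 TPM), Ly9 (6.26 ± 1.70), Cd48 (6.23 ± 2.61), Slamf8 (4.31 ± 2.83), Slamf6 (1.72 ± 0.544), Slamf9 (1.38 ± 0.564), Slamf7 (1.10 ± 0.188) and Slamf1 (0.189 ± 0.0215). Neighbors in that order overlapped except Slamf7 and Slamf1. Slamf9 thus stood first of 8 by mean level in control and sixth with aCSF1R.

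**Figure D2:**
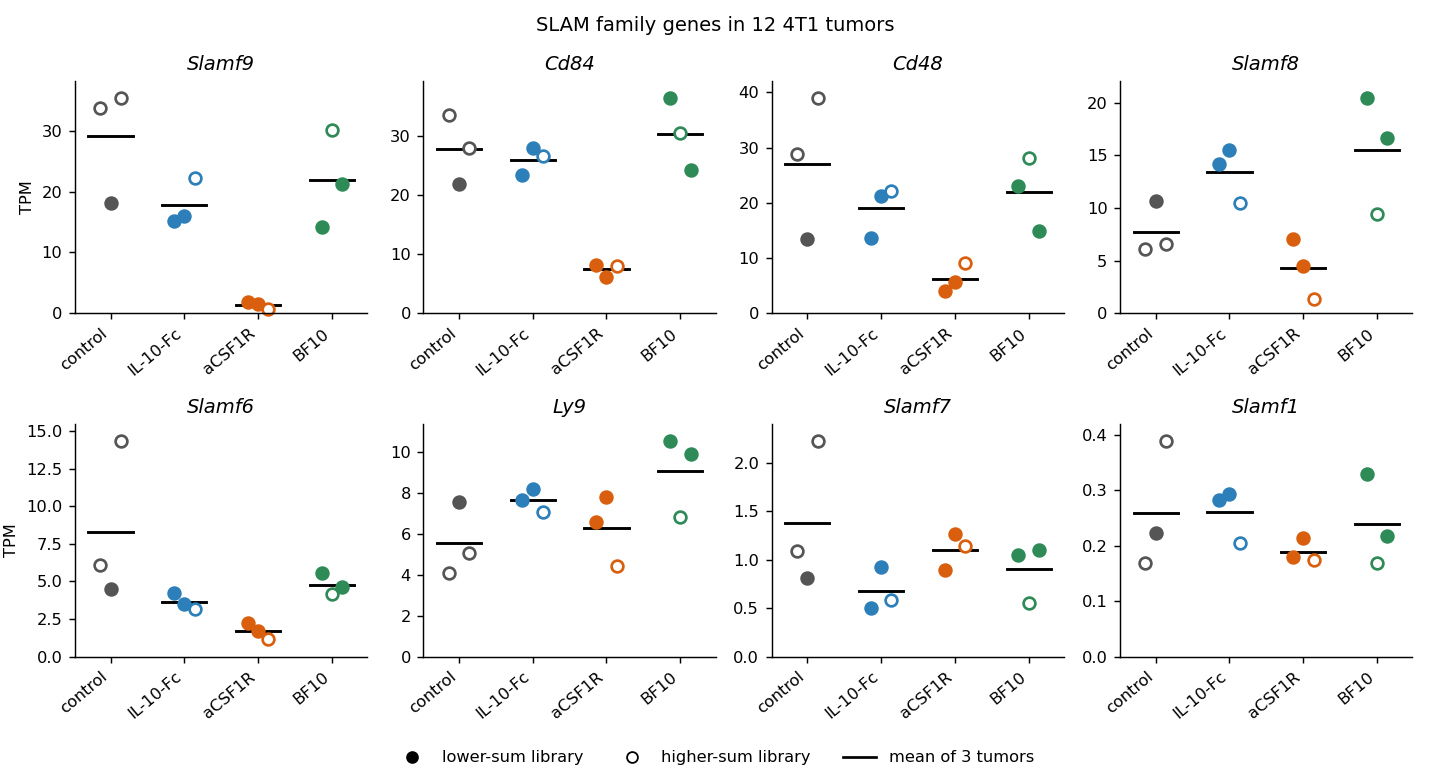
Each panel plots the TPM of 1 SLAM family gene (y axis, from 0) in the 3 tumors of each group (x axis); filled points are lower-sum and open points higher-sum libraries, and bars are group means. For Slamf9, Cd84, Cd48 and Slamf6 the 3 aCSF1R tumors lie below all others, while Ly9, Slamf7 and Slamf1 overlap with control.

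The 8 genes lie on chromosome 1. In the 300-base promoter windows of RefSeq on GRCm38.p6, 7 of the 8 had an entry (Ly9 had none). The 250 bases before the annotated start are shown for Slamf9 and Cd84, the members past the threshold, and for Slamf7, a member whose difference between aCSF1R and control was near 0, with matches to short motifs in capitals.

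Slamf9 (chr1:172475110-172475359, plus strand): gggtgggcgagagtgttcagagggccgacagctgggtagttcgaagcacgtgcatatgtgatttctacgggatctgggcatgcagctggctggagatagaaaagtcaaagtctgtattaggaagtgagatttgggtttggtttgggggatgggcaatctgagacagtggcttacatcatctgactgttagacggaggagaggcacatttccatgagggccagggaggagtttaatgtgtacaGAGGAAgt
Cd84 (chr1:171839447-171839696, plus strand): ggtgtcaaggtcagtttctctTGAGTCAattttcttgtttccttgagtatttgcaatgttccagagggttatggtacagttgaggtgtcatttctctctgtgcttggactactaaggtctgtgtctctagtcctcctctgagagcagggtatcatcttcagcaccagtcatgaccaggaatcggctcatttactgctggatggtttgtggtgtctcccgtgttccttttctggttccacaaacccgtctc
Slamf7 (chr1:171649000-171649249, minus strand): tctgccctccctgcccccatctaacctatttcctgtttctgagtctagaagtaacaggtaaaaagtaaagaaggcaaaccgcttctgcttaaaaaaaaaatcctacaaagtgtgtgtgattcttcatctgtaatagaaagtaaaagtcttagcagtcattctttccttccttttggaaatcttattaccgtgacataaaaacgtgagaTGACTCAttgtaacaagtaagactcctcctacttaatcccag

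The motifs were searched on both strands: the PU.1-like letters GAGGAA (PU.1 is a regulator of myeloid genes), the AP-1-like TGANTCA and the STAT-like TTCNNNGAA. GAGGAA occurs in Slamf9 8 to 3 bases before the start and in 1 of the 7 members in all, against 23.3% of 32851 promoter windows of the same length. TGANTCA occurs in Cd84 and Slamf7, 2 of 7, against 6.75% of windows, and TTCNNNGAA in 0 of 7 against 7.02%. No matches overlapped, and Slamf1, Slamf6, Slamf8 and Cd48 held none. These matches are descriptions of letters, and they do not separate the members past the threshold from the rest.

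Slamf9 showed the largest difference of the family. Its level was 33.7, 18.2 and 35.3 TPM in control replicates 4, 5 and 7, 15.2, 16.1 and 22.2 TPM in IL-10-Fc replicates 2, 4 and 7, and 14.1, 30.2 and 21.2 TPM in BF10 replicates 3, 6 and 7. In aCSF1R replicates 4, 6 and 8 it was 1.89, 1.48 and 0.770 TPM. The 3 aCSF1R tumors were far below the other 9, with some 26 to 49 reads on the gene each against 342 to 1244 elsewhere. The difference of aCSF1R from control was -3.63 (SE 0.37; limma adjusted p 0.00111), which is 12.4-fold on the log2(TPM + 1) scale and 21.1-fold as a ratio of mean TPM, and Slamf9 ranked 10 from the lowest difference among 15504 genes. BF10 exceeded aCSF1R by 3.23 (adjusted p 0.00242) and IL-10-Fc exceeded it by 3.00 (adjusted p 0.00479; 0.0619 with median-of-ratios scaling). With the replicate number as a block in the model, Slamf9 was not past the threshold in any of these 3 comparisons (adjusted p 0.0530 against control). Against control, Slamf9 differed by -0.40 in BF10 and by -0.64 in IL-10-Fc (adjusted p 0.788 and 0.738), with overlapping groups. The higher-sum libraries held more Slamf9 outside the aCSF1R group, 22.2 to 35.3 TPM against 14.1 to 21.2 TPM in lower-sum libraries. Within the sets the difference of aCSF1R from control was -2.84 (2 against 1 lower-sum libraries) and -4.33 (1 against 2 higher-sum libraries).

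Slamf8, a receptor known to restrain the oxidative burst of macrophages, did not follow Slamf9 in the same way. It was 6.09, 10.6 and 6.57 TPM in control replicates 4, 5 and 7, 14.2, 15.5 and 10.4 TPM with IL-10-Fc, and 20.4, 9.41 and 16.6 TPM in BF10 replicates 3, 6 and 7. The aCSF1R tumors had 7.02, 4.53 and 1.37 TPM. The highest aCSF1R tumor lay inside the control range, while all 3 lay below the IL-10-Fc and BF10 tumors. The difference of aCSF1R from control was -0.86 (SE 0.46; adjusted p 0.893), BF10 exceeded aCSF1R by 1.74 (adjusted p 0.233) and IL-10-Fc exceeded it by 1.59 (adjusted p 0.427), none past the threshold. Without aCSF1R replicate 8, the tumor with the least Slamf8, these differences were -0.36, 1.24 and 1.09 (adjusted p 0.485, 0.531 and 0.903). Leaving out each library in turn, the difference from control ran from -1.24 to -0.36. Slamf8 was lower in higher-sum libraries, 6.09 to 10.4 TPM against 10.6 to 20.4 TPM outside the aCSF1R group, the opposite of Slamf9. With the set as a term the difference of aCSF1R from control was -1.15 (adjusted p 0.0324), and BF10 and IL-10-Fc exceeded aCSF1R with adjusted p 0.00147 and 0.00348, all past the threshold. Median-of-ratios scaling also put all 3 past it, at -1.12, 1.66 and 1.46 (adjusted p 0.0491, 0.00543 and 0.0167). Its factors were 0.529 to 0.916 in higher-sum and 1.24 to 1.37 in lower-sum libraries, so this result is not separate from the set term. Against control Slamf8 was 0.88 higher in BF10 and 0.73 higher in IL-10-Fc (adjusted p 0.788 and 0.738), and 0.59 and 0.44 with the set term.

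Cd84, a self-binding receptor found on myeloid cells, B cells and T cells, was among the 3 highest members in control tumors. It was 33.5, 21.9 and 27.9 TPM in control replicates 4, 5 and 7, 23.3, 28.0 and 26.7 TPM with IL-10-Fc, and 36.4, 30.5 and 24.2 TPM with BF10. The aCSF1R tumors had 8.21, 6.07 and 8.01 TPM. The aCSF1R group was lower than each of the others with no overlap, and the other 3 groups overlapped. The difference of aCSF1R from control in Cd84 was -1.76 (SE 0.25; limma adjusted p 0.00822), or 3.39-fold on the log2(TPM + 1) scale. It was 1.89 higher in BF10 and 1.69 higher in IL-10-Fc than in aCSF1R (adjusted p 0.00593 and 0.0139). BF10 and IL-10-Fc differed from control by 0.13 and -0.07 (95% intervals -0.43 to 0.69 and -0.64 to 0.49). The call against control was lost without control replicate 4 or aCSF1R replicate 6 (adjusted p 0.0608 and 0.0554), and with median-of-ratios scaling (adjusted p 0.128), while the difference stayed between -1.62 and -2.02 under all alternatives run. In BF10 against aCSF1R it was lost with median-of-ratios scaling (adjusted p 0.218). In IL-10-Fc against aCSF1R it was lost with that scaling (adjusted p 0.524), without rescaling (0.0656), and without any one of the 3 IL-10-Fc tumors or aCSF1R replicate 6 (0.0692 to 0.105). With the replicate number as a block in the model, Cd84 was not past the threshold in any of these 3 comparisons (adjusted p 0.0530 against control).

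Cd48, the lipid-anchored ligand, is expressed on most leukocytes. It was 28.8, 13.4 and 38.9 TPM in control replicates 4, 5 and 7, 13.5, 21.2 and 22.2 TPM with IL-10-Fc, and 23.1, 28.0 and 14.8 TPM with BF10. The aCSF1R tumors had 4.00, 5.58 and 9.10 TPM. All 3 lay below the other 9, and the control tumors spread more widely than those of any other group. The difference of aCSF1R from control was -1.90 (SE 0.43; adjusted p 0.136) and did not pass the threshold, and BF10 and IL-10-Fc exceeded aCSF1R by 1.69 and 1.5 (adjusted p 0.198 and 0.419). With the set as a term the differences were -1.64, 1.69 and 1.5, all past the threshold (adjusted p 0.00729, 0.00349 and 0.00983). Without control replicate 5, the control tumor with the least Cd48, the difference of aCSF1R from control was -2.32 (adjusted p 0.0356). Cd244a, its receptor, was 1.81 ± 0.284 TPM in control, 1.94 ± 0.631 with IL-10-Fc, 1.59 ± 0.523 with aCSF1R and 1.94 ± 0.516 with BF10 (SD, n = 3). These means differed by no more than 0.19 on the log2 scale in any of the 6 comparisons.

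Slamf6, a receptor of T, B and NK cells, was 6.08, 4.49 and 14.3 TPM in control replicates 4, 5 and 7. It was 4.26, 3.52 and 3.14 TPM with IL-10-Fc and 5.58, 4.16 and 4.63 TPM with BF10. The aCSF1R tumors had 2.26, 1.72 and 1.17 TPM, below all others. The difference of aCSF1R from control was -1.65 (SE 0.37; adjusted p 0.124), and with the set term it was again -1.65 (adjusted p 0.0334, past the threshold). Slamf6 exceeded aCSF1R by 1.10 in BF10 and by 0.78 in IL-10-Fc (adjusted p 0.595 and 1). It was the only member whose IL-10-Fc tumors lay below the control tumors without overlap, with a difference of -0.87 (limma unadjusted p 0.0396, adjusted p 0.738). The share of all genes lower without overlap was not computed for this comparison, so the gap is given without a reading. Control replicate 7, with the highest Slamf6, also had the highest sum of 8 B cell and plasma cell markers, 399 TPM against 2.59 to 26.3 TPM in the other 11 libraries. All 8 were above 0 in some control library, and the part of these cells in the Slamf6 level was not tested. Without that library the differences from control were -1.22 in aCSF1R and -0.43 in IL-10-Fc (adjusted p 0.296 and 0.989).

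Ly9, a self-binding receptor of T and B cells, did not share the low level of the aCSF1R tumors. It was 4.09, 7.56 and 5.06 TPM in control, 7.63, 8.19 and 7.06 TPM with IL-10-Fc, 6.58, 7.77 and 4.42 TPM with aCSF1R, and 10.5, 6.81 and 9.89 TPM with BF10. All groups overlapped with control. The difference of aCSF1R from control was 0.15 (95% interval -0.52 to 0.82; adjusted p 0.893) and -0.01 with the set as a term, and its sign also turned with other scalings. BF10 was 0.63 above control (adjusted p 0.788; 0.47 with the set term). Ly9 lies within the span of Cd244a on the opposite strand, with its lowest coordinate 29.4 kb from the start of Cd244a. Whether the counting used strand is not stated, so reads of these 2 genes may not be fully separated.

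Slamf7, known from NK cells, plasma cells and activated macrophages, was 1.09, 0.810 and 2.22 TPM in control, 0.503, 0.925 and 0.588 TPM with IL-10-Fc, 0.894, 1.26 and 1.14 TPM with aCSF1R, and 1.05, 0.555 and 1.10 TPM with BF10. The aCSF1R tumors lay inside the control range, with a difference of -0.14 (95% interval -0.70 to 0.42). The highest Slamf7 level was again in control replicate 7, and without it the difference was 0.11. Slamf1, the founding member and a marker of blood stem cells and activated lymphocytes, did not reach 1 TPM in any library and was not tested. It ranged from 0.168 to 0.388 TPM in control and from 0.169 to 0.328 TPM with IL-10-Fc or BF10, and the aCSF1R tumors had 0.179, 0.213 and 0.174 TPM. These levels stand for some 10 to 47 reads per library, and the groups overlapped.

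Counted over the 7 members tested, 2 (Slamf9 and Cd84) were past the threshold and lower in aCSF1R than in control, against 0.568% of 15504 genes, and 4 (also Cd48 and Slamf6) were lower without overlap, against 3.68% of genes. With the library set as a term, 5 of 7 passed, against 2.01%. The median of the members was -1.65, beside 0.24 for all genes tested (-1.64 and 0.0068 with the set term). The count of 2 was 1 without control replicate 4 or aCSF1R replicate 6 and 3 without control replicate 5. The contrast was part of what chose the family, so the shares are given without a reading.

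The same 2 members passed in BF10 against aCSF1R (0.735% of genes passed) and in IL-10-Fc against aCSF1R (0.542%). In each, 5 members (also Slamf8, Cd48 and Slamf6) were higher without overlap, against 4.33% and 5.90% of genes lower in aCSF1R. With the set term, 4 members (Slamf8, Slamf9, Cd48 and Cd84) passed in each, against 2.82% and 2.13%. The medians of the members were 1.69 and 1.5, beside 0.06 and 0.11 for all genes. The 3 comparisons share the aCSF1R tumors. By the sign of the difference alone, 6 of 7 members were lower in aCSF1R than in control (the exception was Ly9), against 26.4% of all genes tested, and 6 of 7 were higher in BF10 and in IL-10-Fc than in aCSF1R (the exception was Slamf7), against 58.2% and 66.6% of genes. The count of 2 in IL-10-Fc against aCSF1R was 1 (Slamf9) without any one of the 3 IL-10-Fc tumors or without aCSF1R replicate 6.

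In BF10 against control 0 of 7 members passed (0% of genes; 0 members and 234 genes at an unadjusted p below 0.05 by limma). IL-10-Fc against control gave 0 of 7 (0.00645% of genes, which is 1 gene; 1 member and 224 genes unadjusted). The medians of the members in these comparisons were -0.21 and -0.40, beside 0.32 and 0.35 for all genes (0.04 and -0.14 beside 0.07 and 0.10 with the set term). BF10 against IL-10-Fc gave 0 of 7 (0% of genes; 0 members and 42 genes unadjusted), with differences from 0.15 to 0.32. The 95% interval of that last difference was -0.58 to 1.05 for Slamf9 and -0.36 to 0.76 for Cd84.

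**Figure D3:**
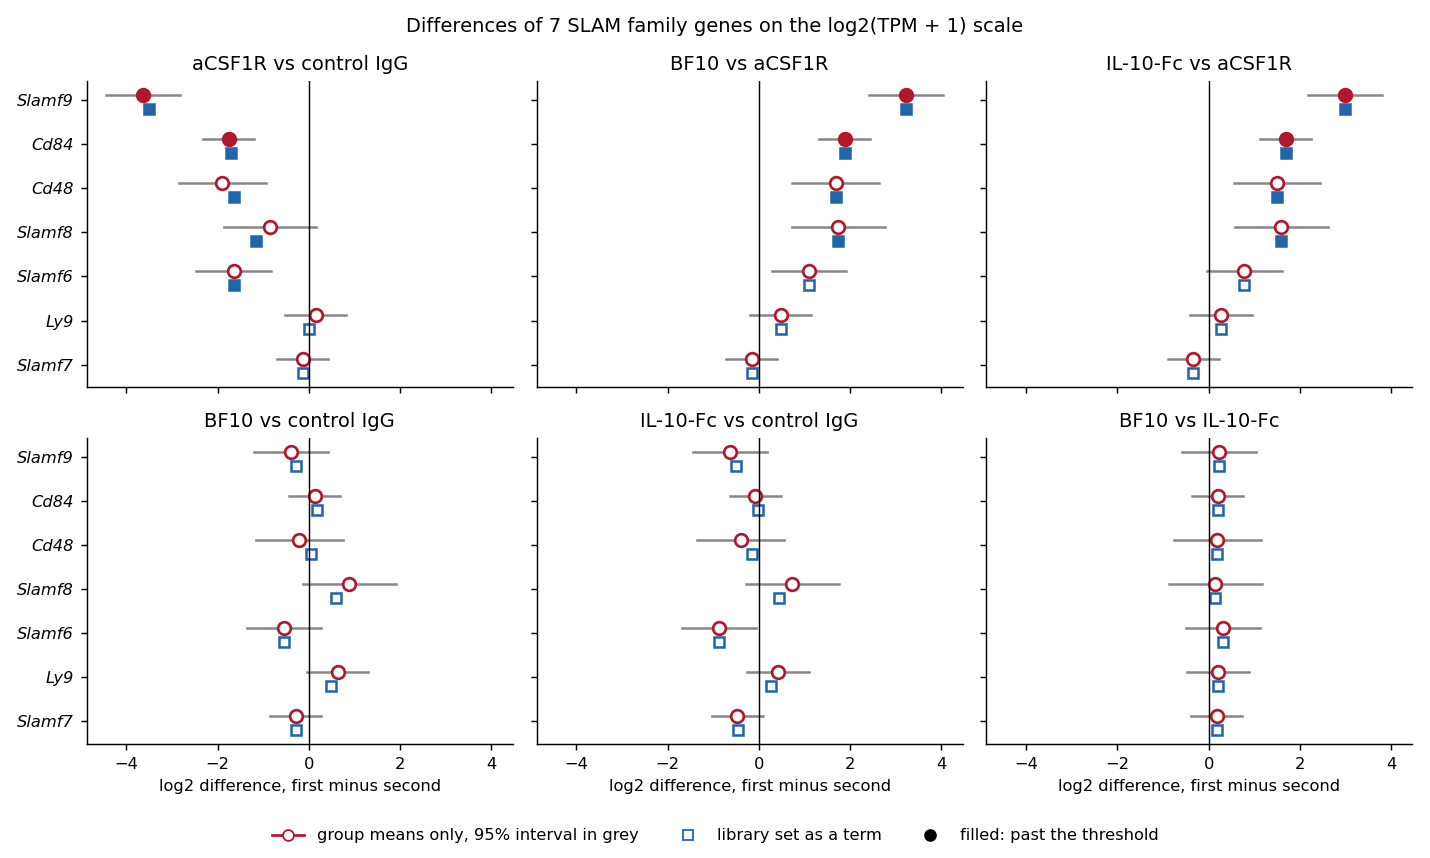
Differences of 7 SLAM family genes on the log2(TPM + 1) scale in 6 comparisons (x axis, first minus second group); circles with 95% intervals are the model with group means only, squares the model with the library set as a term, and filled symbols passed the threshold. Slamf9 and Cd84 are filled in all 3 comparisons with aCSF1R, at -3.63 and -1.76 against control, and no symbol is filled in the bottom 3 panels.

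The list of 22 signaling partners of SLAM receptors was chosen with earlier results known. It is not confined to SLAM signaling and also holds genes that serve other receptors, among them Fcer1g and Tyrobp. Of the 21 tested, 3 were past the threshold and lower in aCSF1R than in control, against 0.568% of all genes past it. Fcer1g, a signaling chain of Fc receptors, was 43.8 to 54.5 TPM in aCSF1R tumors and 221 to 255 TPM in control (-2.31, SE 0.22, limma adjusted p 0.000685). Tyrobp, an adaptor of myeloid and NK receptors, was 56.5 to 123 TPM against 323 to 640 TPM (-2.60, SE 0.38, adjusted p 0.00905). Sh2d1b1, which encodes EAT-2, was 0.504 to 0.564 TPM against 2.79 to 3.85 TPM (-1.52, SE 0.26, adjusted p 0.0270). Fcer1g and Tyrobp were also past the threshold and higher in BF10 than in aCSF1R (2.53 and 2.43) and in IL-10-Fc than in aCSF1R (2.26 and 2.20). They were the only 2 of 21 in each, against 0.735% and 0.542% of all genes. Sh2d1b1 was 1.21 higher in BF10 than in aCSF1R (adjusted p 0.0827; 0.00529 with the set term).

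Sh2d1a, which encodes SAP, was 0.588 to 3.57 TPM in control and 0.699 to 1.12 TPM with aCSF1R, with a difference of -0.40 (adjusted p 0.893). Sh2d1b2, a second EAT-2-like gene, did not pass the filter and was at 0 to 1.19 TPM. With the set term 8 of 21 partners were past the threshold and lower in aCSF1R than in control, against 2.01% of all genes past it. Among the 8 were the oxidase subunit Cybb (-1.73, limma adjusted p 0.0133), the exchange factor Vav1 (-1.81, adjusted p 0.0102) and the phosphatase Inpp5d (-1.48, adjusted p 0.00813). The kinases Fyn and Lck of lymphocyte SLAM signaling differed by -0.07 and -0.41 in that model (adjusted p 1.00 for both), and 0 of 21 partners passed in BF10 or IL-10-Fc against control or against each other.

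Markers of macrophages were also lower in the aCSF1R tumors. The sum of 12 macrophage markers was 1813 to 2303 TPM in control, 1510 to 1722 TPM with IL-10-Fc, 1813 to 1865 TPM with BF10 and 85.0 to 274 TPM with aCSF1R. All 12 were above 0 in the aCSF1R group, and 12 of 12 were lower than in control, against 26.4% of all genes tested. Of these, 7 passed the threshold, against 0.568% of genes (10 with the set term, against 2.01%). Among the 7 were the scavenger receptor Msr1 (-3.75, limma adjusted p 6.40e-05) and the complement gene C1qa (-3.98, adjusted p 0.000685). The list was chosen with earlier results known, so these shares are given without a reading. The part of macrophage number in the SLAM family levels was not tested. The 10 T cell markers summed to 29.3 to 49.4 TPM in control and 17.5 to 49.4 TPM with aCSF1R, and the 6 NK cell markers to 23.0 to 34.2 TPM and 15.7 to 35.5 TPM. None of these T and NK cell markers passed in aCSF1R against control, and with the set term 1 did, the NK and T cell receptor Klrk1 (-1.16, adjusted p 0.0105). The 8 neutrophil markers summed to 833 to 1803 TPM in control, 936 to 2204 TPM with IL-10-Fc and 431 to 3369 TPM with aCSF1R. In BF10 they summed to 725, 1713 and 17029 TPM, the last in replicate 3, far above the other 11 libraries. Without that library Slamf9 and Cd84 were still past the threshold in BF10 against aCSF1R (3.50 and 1.75, adjusted p 0.00775 and 0.0378), and 0 members passed in BF10 against control. Slamf8, highest in that tumor, then exceeded aCSF1R by 1.52 (adjusted p 0.979). The neutrophil and 6 dendritic cell markers tested gave 0 past the threshold in aCSF1R against control, and the 6 monocyte markers gave 1, the chemokine receptor Ccr2 (-2.57, adjusted p 0.00137). Among the 4 B cell and plasma cell markers that passed the filter, 0 passed the threshold.

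Divided by the macrophage sum, the members did not all move the same way. Per 1000 TPM of macrophage markers, Slamf9 had 9.84 to 18.6 TPM in control, 8.88 to 14.7 with IL-10-Fc, 7.78 to 16.2 with BF10 and 6.89 to 9.07 with aCSF1R, so that its ratio in aCSF1R tumors was below control but overlapped with IL-10-Fc and BF10. Cd48 had 7.23 to 16.9 TPM in control and 14.6 to 107 with aCSF1R, with overlap. Cd84 had 11.8 to 18.5 TPM in control and 30.0 to 94.2 with aCSF1R. The ratio of Slamf8 was 2.86 to 5.75 in control and 16.1 to 25.7 with aCSF1R, that of Slamf6 was 2.43 to 6.22 and 8.26 to 13.8, and that of Ly9 was 2.20 to 4.09 and 24.1 to 52.0. For Cd84, Slamf8, Slamf6, Ly9, Slamf7 and Slamf1 the aCSF1R ratios lay above those of all 9 other tumors. The macrophage sum itself was 85.0 to 274 TPM with aCSF1R and 1510 to 2303 TPM in the other groups. Any gene whose level fell less than this sum has a higher ratio there. The share of all genes with ratios above the other tumors was not computed. The 3 complement genes C1qa, C1qb and C1qc made up 61.9% to 85.9% of the macrophage sum, so the ratio mostly compares a member with these genes, and it was not tested.

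**Figure D4:**
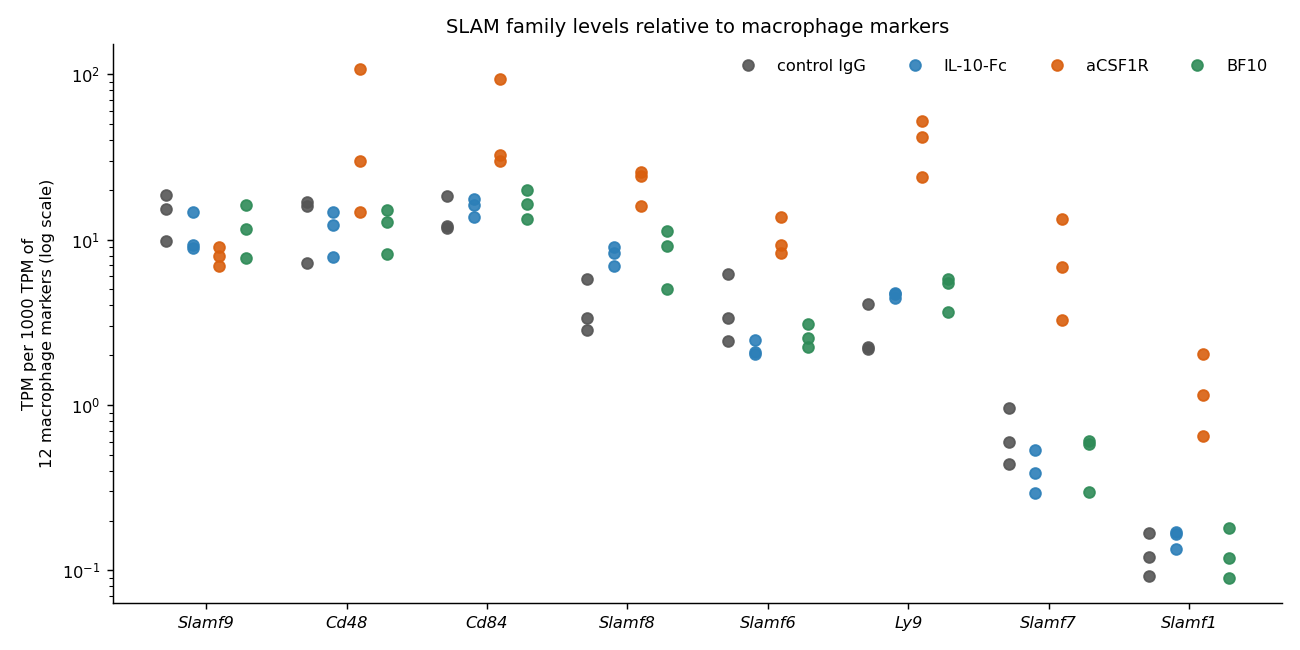
TPM of each SLAM family gene per 1000 TPM of 12 macrophage markers (y axis, log scale) in the 12 tumors, colored by group. The aCSF1R points of Slamf9, at 6.89 to 9.07, overlap with the IL-10-Fc and BF10 points, while those of Cd84, Slamf8, Slamf6, Ly9, Slamf7 and Slamf1 lie above the other groups.

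The family shares a chromosomal cluster as well as a structure. The 8 genes and Cd244a lie within 1031 kb of chromosome 1 (171559193 to 172590568, GRCm38), in an array of 7 (Cd244a, Ly9, Slamf7, Cd48, Slamf1, Cd84 and Slamf6) and a pair (Slamf9 and Slamf8) 522 kb further on. Of the 19 other protein-coding genes in this span, 12 were tested and 0 passed the threshold in any of the 6 comparisons. Between aCSF1R and control their differences ran from -0.68 to 0.83 with a median of 0.37 (all genes 0.24), and 11 of 12 were above 0, against 73.5% of all genes tested. Slamf9, at -3.63, and its nearest protein-coding neighbor Igsf9 start 6.43 kb apart. In the array, the first 3 genes in order of position, Cd244a, Ly9 and Slamf7, stood at -0.13, 0.15 and -0.14, and the 3 tested genes after them, Cd48, Cd84 and Slamf6, at -1.90, -1.76 and -1.65 (Slamf1, between Cd48 and Cd84, was not tested). This order is a description of 6 genes, with no test. In the pair, Slamf9 stood at -3.63 and Slamf8 at -0.86.

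**Figure D5:**
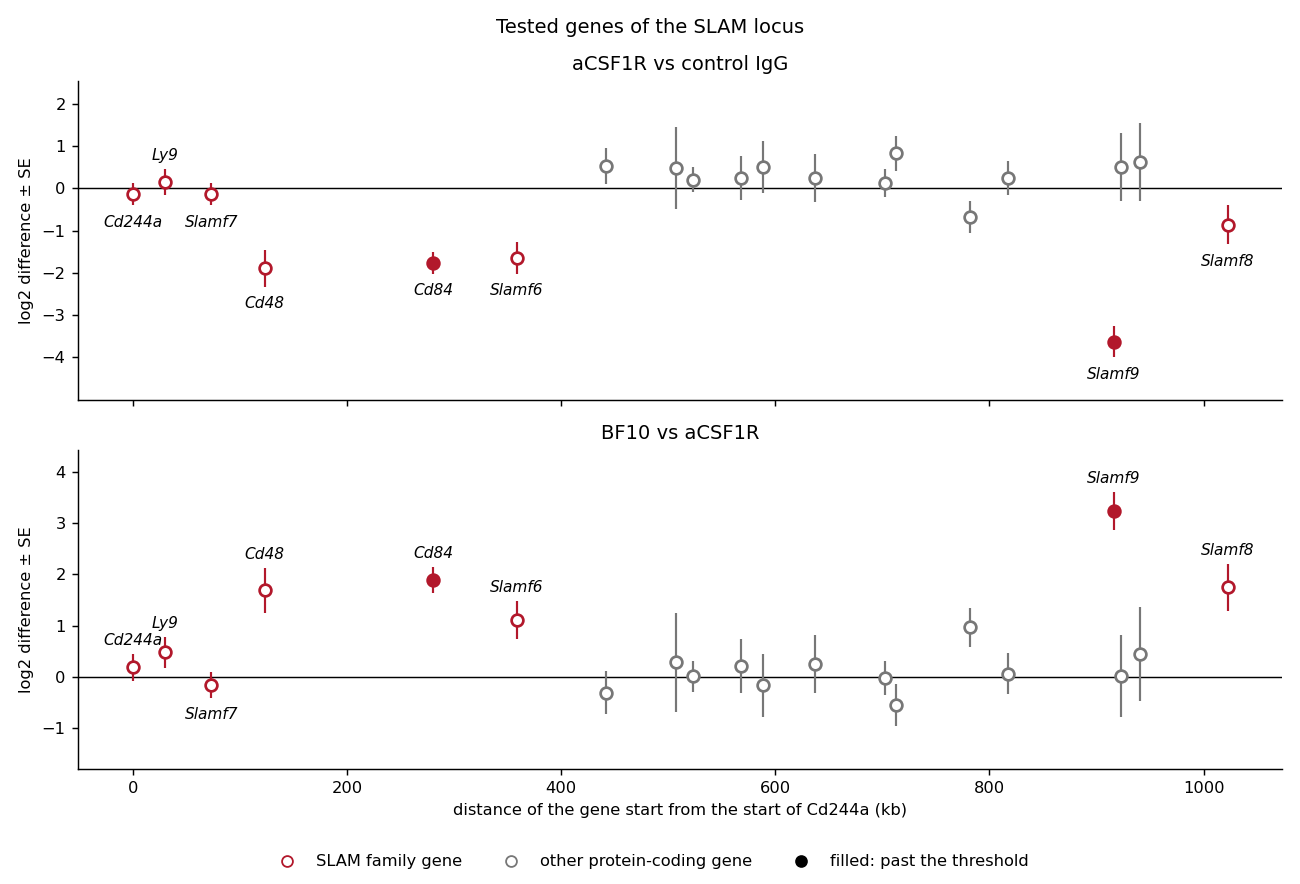
Differences ± SE on the log2(TPM + 1) scale (y axis) of the tested genes of the SLAM cluster against the distance of the gene start from the start of Cd244a (x axis, kb), for aCSF1R vs control and BF10 vs aCSF1R; red, SLAM family; grey, other protein-coding genes; filled, past the threshold. The 12 grey genes lie between -0.68 and 0.83 in the upper panel, and Slamf9 at -3.63. The gene start on the x axis is the lowest coordinate of each gene, whichever its strand.

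Across the 12 tumors, with values centred within each library set, Slamf9, Cd84, Cd48 and Slamf8 ran together (Pearson's r from 0.84 to 0.95 for their 6 pairs). Slamf6 followed them at 0.63 to 0.81, Ly9 at 0.43 to 0.70 and Slamf7 at -0.30 to 0.07. These values are descriptions over 12 libraries that share the low aCSF1R group. Without centring, Slamf8 and Cd48 had r = 0.35, and Ly9 had r = -0.12 with Cd48, 0.09 with Slamf9, 0.18 with Cd84 and 0.78 with Slamf8. Outside the aCSF1R group the median of Slamf8 was 7.99 TPM in higher-sum and 15.5 TPM in lower-sum libraries, while that of Cd48 was 28.4 and 14.8 TPM. The genes most like Slamf9 were Ly86 (r = 0.996), C1qa (0.996) and C1qc (0.994), and those most like Cd84 were Plek (0.996), Ms4a6d (0.994) and Gpr65 (0.994). Slamf8 was most like Emilin2 (0.988), Cd68 (0.986) and Ckb (0.985). Cd48 was most like Cd52 (0.978), Batf (0.975, but 0.675 without centring) and Snx20 (0.967). Slamf6 was most like Bank1 (0.954), Cd83 (0.953) and Gm2629 (0.950). The likeness was weaker for Ly9, with Emp3 (0.920), Cdk2ap2 (0.916) and Gm5801 (0.913), and for Slamf7, with Igkv3-12 (0.839) and Klk1 (0.836).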

How the data were processed

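The authors isolated tumor RNA by the TRIzol method, prepared stranded mRNA libraries and sequenced them on an Illumina NextSeq. The submitters' processing notes name STAR 2.7.5a and RSEM 1.3.3, with the builds mm10 and GRCm38; whether counting used strand is not given in the sources used here. The authors deposited FPKM values for 55401 genes in 12 libraries, matched to samples by column name (0 columns unmatched). A further 4 tables of the authors hold their DESeq2 (version 1.28.0) comparisons with fold changes and p-values and were not used. As FPKM is no count, count models were not used. The values were scaled to a sum of 1000000 per library (TPM), and 15504 genes with at least 1 TPM in at least 3 libraries were tested on log2(TPM + 1) with limma 3.58.1 (eBayes with trend, R 4.3.3), 1 mean per group, 8 residual degrees of freedom, Benjamini-Hochberg adjusted over all of them. The script was tested on simulated data. The members and gene lists were chosen with earlier results of these data known. Named genes were all members, Cd244a, signaling partners past the threshold and the SAP family, genes of the locus past the threshold, and the 3 genes most correlated with each member (1 of them is not reported here); the 3 partners named from the model with the set term and Fyn, Lck, Igsf9, Klrk1, Ccr2, Msr1 and C1qa were chosen after their values were seen. Alternatives were a pseudocount of 0.1, no filter, no rescaling, median-of-ratios scaling, no minimum fold, the library set (boundary at an FPKM sum of 700000) as a term, a replicate block, and leaving out each library. A search for the tyrosine motif in proteins was not run. Groups of 3 are too small for a test of single outlying tumors.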

Additional observations from a re-analysis of the deposited data

How the results depend on the processing

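Of the 114 recomputed counts of members past the threshold, 100 stayed within 1.5 times the reported count, 11 were lower and 3 higher. All of those that changed were in comparisons with aCSF1R. In the comparisons without aCSF1R a count of 0 stayed 0, which says little about stability. Of the 798 recomputed differences of single members, 746 kept their direction and side of the threshold. A term for the library set gave counts of 5 for aCSF1R vs control and 4 for both BF10 and IL-10-Fc against aCSF1R. With FPKM not rescaled, the count for IL-10-Fc vs aCSF1R was 1 (Slamf9). With median-of-ratios scaling it was also 1, but the member was Slamf8, and Slamf9 and Cd84 were lost. In aCSF1R vs control and BF10 vs aCSF1R that scaling kept the count with Slamf8 in place of Cd84. A count that stayed can therefore stand for different members. Leaving out 1 library gave counts of 1 to 3 for aCSF1R vs control and 1 to 2 for IL-10-Fc vs aCSF1R. The cause of these changes was not tested. Same-numbered libraries had correlations of their deviations from the group means between -0.66 and 0.42 over 7 pairs. The positive values, 0.35 and 0.42, came from libraries of the same set, and the negative values from libraries of different sets. As the values go with the library set, they cannot decide whether a shared replicate number pairs tumors. A fit with a replicate block called 0 members in aCSF1R vs control, BF10 vs aCSF1R and IL-10-Fc vs aCSF1R, with 2 residual degrees of freedom left. Except for the set term, the share of all genes called was not computed for the alternatives, so their counts are given without a reading. In this replicate block fit the medians of the members were 1.09 and 0.76 in the last 2 comparisons. Directions that reversed with it were Slamf8 in aCSF1R vs control (0.15), Cd84 in BF10 vs control (-0.081), Ly9 in IL-10-Fc vs aCSF1R (-0.030) and Cd48 in BF10 vs IL-10-Fc (-0.43). The remaining reversals were of differences reported at a size of 0.32 or less. Ly9 in aCSF1R vs control was -0.0064 with FPKM not rescaled, -0.048 with median-of-ratios scaling and -0.0067 with the set term. Cd84 in BF10 vs control was -0.058 with FPKM not rescaled and -0.24 with median-of-ratios scaling, and Cd48 in that comparison was 0.042 with the set term. Leaving out 1 library, the differences from control ran from -0.31 to 0.11 for Slamf7 and from -0.017 to 0.36 for Ly9 in aCSF1R, from -0.63 to 0.11 for Cd48 and from -0.028 to 0.27 for Cd84 in BF10, and from -0.23 to 0.067 for Cd84 in IL-10-Fc. In BF10 vs IL-10-Fc they ran from -0.071 to 0.45 for Slamf8, from -0.019 to 0.50 for Slamf9 and from -0.027 to 0.43 for Cd48.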
